A study of Mus musculus with 4 samples.

Results

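The p53 target genes are transcripts that the tumour suppressor p53 switches on after DNA damage and other stress, together with the proteins that keep p53 itself in check. Of 40 listed genes, 39 had a probe set that carried their symbol alone, out of 18193 genes read in this way on the array, and each was read by the probe set with the highest mean over the 4 arrays. Trp53, which encodes p53, was not analysed here. The arrays held RNA from 2 clones, E1 and C1, of mouse mammary epithelial cells that lacked Deaf-1 and had been immortalised with the E6 and E7 proteins of human papilloma virus 16. The array design was crossed, so that each clone carried either a Deaf-1 retrovirus or an empty control retrovirus, and RNA was taken after 48 hours of selection in puromycin. There was thus 1 array of each clone in the Deaf-1 group and 1 of each in the control group. All 4 arrays share the null genotype, E6 and E7, so no array shows cells without viral proteins, and each clone stands for a single isolate.

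p53 is a transcription factor that is kept scarce by the ubiquitin ligase Mdm2, one of its own targets. When p53 is stabilised it raises inhibitors of the cell cycle, repair enzymes, death signals and metabolic regulators, so these transcripts are commonly read as its output. The E6 protein of the virus directs p53 to degradation with the help of the cellular ligase Ube3a, and E7 inactivates the Rb proteins. p53 binds DNA at a response element made of a pair of half-sites, each of which is a run of purines, a C, A or T bases, a G and a run of pyrimidines.

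Matches to the p53 response element close to transcript starts are shown for some members whose levels are described below. In RefSeq windows (build GRCm38.p6) from 250 bases before to 50 bases after each start, 31 members had 39 windows. A pair of half-sites with no bases between them and at most 1 mismatch to the p53 consensus was present in the windows of Ccng1 and Cdkn1a, and in 0.0883% of all 32851 windows. The consensus reads the same on both strands, so a search of 1 strand covers both. With up to 3 mismatches a match was present in 10 of the members' 39 windows, those of Aen, Bbc3, Ccng1, Cdkn1a, Gadd45a, Mdm4, Polk, Sesn1 and Tigar, and in 6.29% of all windows. The Aen windows hold the same match, whose first base lies 121 bases before 1 start and 10 bases after another. A match is a description of the letters and not evidence of binding. Capitals mark the match, and each sequence runs in the direction of the gene.
Cdkn1a, chr17:29090898-29090977, plus strand, 1 mismatch, first base of the match 51 bases before a transcript start: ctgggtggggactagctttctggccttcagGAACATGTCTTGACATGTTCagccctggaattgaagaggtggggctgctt
Ccng1, chr11:40755432-40755511, minus strand, 1 mismatch, first base 195 bases before the start: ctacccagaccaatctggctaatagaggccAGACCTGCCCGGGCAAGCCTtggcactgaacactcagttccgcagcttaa
Bbc3, chr7:16309481-16309510, plus strand, 3 mismatches, first base 97 bases before 1 of its starts: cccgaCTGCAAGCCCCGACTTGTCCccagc
Aen, chr7:78895932-78895961, plus strand, 3 mismatches, first base 121 bases before 1 of its starts: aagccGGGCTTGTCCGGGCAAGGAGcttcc

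Values were deposited by the authors as log2 RMA expression, in which a difference of 1 is a 2-fold difference. A background level of 3.83 was taken from 44 olfactory receptor probe sets, whose means lay below it in 95% of cases. The array medians ran from 3.77 to 3.87. Deaf1 (1448446_at) read 6.25 with the Deaf-1 retrovirus and 4.91 with the control retrovirus in clone E1, and 6.73 and 5.01 in clone C1, so the labels of the retroviruses were borne out. The markers of the labelled cell type were mostly near background. Of 7 luminal epithelial genes 3 had a mean above background (list means 4.11 and 3.82 on the Deaf-1 and control arrays of E1, and 3.72 and 3.86 on those of C1). The defining markers Cdh1, Krt8 and Krt18 had means below it, although Krt8 read 4.01 and 3.84 on the E1 arrays, while Epcam lay between 5.81 and 6.33, Krt19 between 4.37 and 4.64 and Elf3 between 4.24 and 4.95. Of 7 basal and myoepithelial genes 3 lay above it, which were Krt5 between 4.45 and 4.74, Trp63 between 3.87 and 4.43 and the contractile gene Acta2 between 11.46 and 11.84, while Krt14 lay below. All 7 fibroblast and mesenchymal genes lay above it, with list means of 11.9 on the Deaf-1 array and 11.9 on the control array of E1, and 11.7 and 11.6 on those of C1. In such bulk RNA, fewer cells of a type and less RNA per cell cannot be told apart.

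Most p53 target genes read above the background level. The means of 37 of the 39 lay above background. The exceptions were Perp, which encodes a membrane protein of desmosomes and read 2.49 to 2.79, and Epha2, an ephrin receptor, which read 3.58 to 3.79. Differences given for these 2 genes are between values at or near background. A mean above the level does not by itself show that a gene was expressed. On the control arrays of these cells, which lacked Deaf-1, Deaf1 itself read 4.91 in E1 and 5.01 in C1. The means of Xpc (4.88), Tnfrsf10b (4.91) and Tigar (5.10) lay near those values.

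The p53 target genes set the clones apart. At an unadjusted p under 0.01 in limma, with retrovirus in the model, 11 of 39 members (28.2%) were higher in clone E1 than in clone C1 and 2 (5.13%) were lower. Among all 45037 probe sets tested, 2.55% were higher in E1 and 2.83% lower by the same rule. Among 11730 genes with a mean above background, read as the members were, these shares were 5.1% and 5.21%. The members higher in E1 were Eda2r, Trp53inp1, Ccng1, Pmaip1, Cdkn1a, Phlda3, Gadd45g, Zmat3, Aen, Ercc5 and Ei24, by 1.62-fold to 4.49-fold. Btg1 and Sesn1 were lower in E1, a share near the 5.21% of the genes above background. The median difference over the members was 0.37 on the log2 scale, against -0.02 over the genes above background. No member reached an adjusted p under 0.05 in limma, which 0.0688% of probe sets did on the higher side and 0.04% on the lower side. The adjusted p of the 13 members ran from 0.0535 to 0.18. After a further quantile normalization or cyclic loess 10 members higher in E1 passed it, and 11 after median centring or with no retrovirus term. With 1 array left out and no retrovirus term, 8 to 11 members were called higher and 0 to 2 lower, and Ei24, Ercc5, Gadd45g, Btg1 and Sesn1 were lost in at least 1 of these fits. Each clone is a single isolate, so these tests measure only the spread between its arrays. Where all E1 arrays of a gene are said below to lie above or below its C1 arrays, this describes 2 arrays against 2. The share of all genes without such overlap was not counted.

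**Figure D1:**
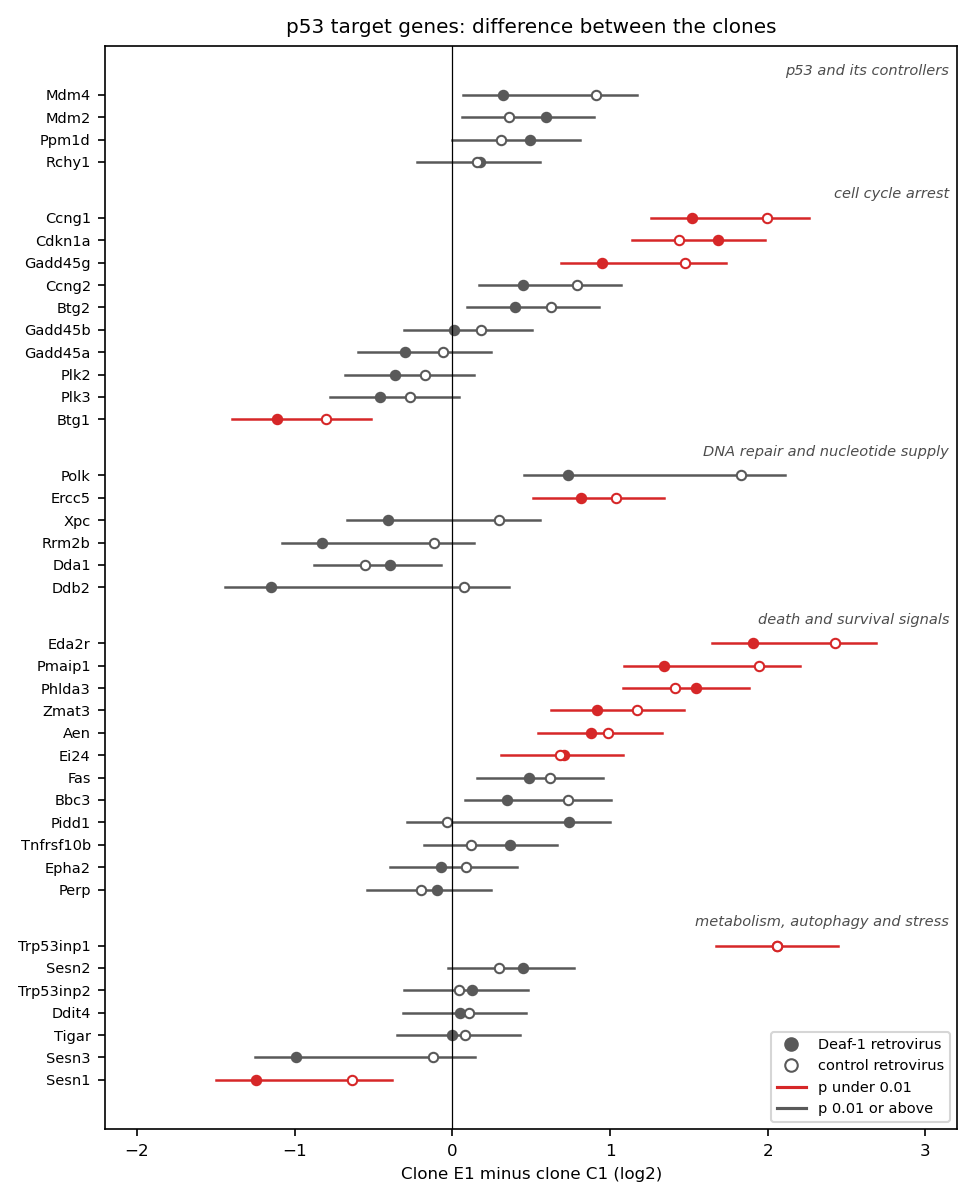
Difference between clone E1 and clone C1 (log2, horizontal axis) for the 39 p53 target genes, grouped by role. Filled circles compare the Deaf-1 arrays, open circles the control arrays, bars are limma's 95% confidence intervals, and red marks an unadjusted p under 0.01. The red genes right of 0 include 6 of the 12 death and survival genes, while Btg1 and Sesn1 lie left of 0.

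Genes of cell cycle arrest included some of the brightest that differed. Cdkn1a (1424638_at), which encodes the cyclin-dependent kinase inhibitor p21, read 10.70 with Deaf-1 and 10.69 with control in clone E1, and 9.01 and 9.25 in clone C1. Both E1 arrays lay above both C1 arrays whichever retrovirus they carried. The mean was 10.69 ± 0.0098 in E1 and 9.13 ± 0.167 in C1 (SD, n = 2 arrays each), a 2.95-fold difference (log2 difference 1.56, standard error 0.15, adjusted p = 0.078 from limma). A second probe set of Cdkn1a (1421679_a_at) gave a log2 difference of 1.33. Ccng1 (1420827_a_at), cyclin G1, which brings a phosphatase to Mdm2, read 10.68 with Deaf-1 and 10.90 with control in E1, and 9.16 and 8.90 in C1. Here too the clones did not overlap, at a 3.38-fold difference (log2 difference 1.76, standard error 0.18, adjusted p = 0.0838). The other probe sets of Ccng1, 1450016_at and 1450017_at, gave 1.93 and 2.13. Gadd45g (1453851_a_at), a stress sensor that acts on stress-activated kinases, read 6.06 and 6.45 in E1 with Deaf-1 and control, and 5.11 and 4.97 in C1.

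The arrest genes did not move as a block. Gadd45a and Gadd45b, relatives of Gadd45g, had log2 differences between E1 and C1 of -0.18 and 0.10 and were not called. Btg1 (1426083_a_at), an antiproliferative cofactor, was lower in E1, where it read 9.13 with Deaf-1 and 9.36 with control, against 10.24 and 10.15 in C1. That is a log2 difference of -0.95 (standard error 0.16), with -0.95 at 1437455_a_at and -0.75 at 1442018_at. Btg2, of the same family, differed by 0.51, cyclin G2 (Ccng2) by 0.62, and the polo-like kinases Plk2 and Plk3 by -0.27 and -0.36, none of them called. Plk3 (1434496_at) read 5.59 on both E1 arrays, and 6.05 with Deaf-1 and 5.86 with control in C1, so that both E1 arrays lay below both C1 arrays. For Ccng2 a second probe set (1448364_at) gave 0.97 and passed an unadjusted p of 0.01. In all, 3 of 10 arrest genes (30%) were higher in E1, 1 (10%) was lower and 6 were not called. These shares were 5.1% and 5.21% of the genes above background.

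Death and survival genes were the largest role group. Of 12, 6 (50%) were higher in E1, none was lower and 6 were not called. Of the genes above background 5.1% were higher and 5.21% lower. The role groups are small and their members share 4 arrays, so their counts are a description and do not rank the roles. Eda2r (1440085_at), a death receptor relative that binds ectodysplasin A2, read 6.94 with Deaf-1 and 7.25 with control in E1, and 5.04 and 4.82 in C1. It had the largest fold difference of all members, 4.49 (log2 difference 2.17, standard error 0.19, adjusted p = 0.0668 from limma). Pmaip1 (1418203_at), the BH3-only protein Noxa, which releases the mitochondrial route to death, read 7.96 and 8.18 in E1, and 6.62 and 6.23 in C1, with Deaf-1 first in each pair. Phlda3 (1449002_at), which restrains the survival kinase Akt, read 10.36 on both E1 arrays, and 8.81 and 8.94 on the Deaf-1 and control arrays of C1. In all 3 genes every E1 array lay above every C1 array, by 1.34 or more under each retrovirus.

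The remaining death genes differed less. Zmat3 (1449353_at), an RNA-binding zinc finger protein, read 8.45 and 8.57 in E1, and 7.54 and 7.40 in C1. Aen (1423957_at), an apoptosis-enhancing nuclease, read 7.70 and 7.87 in E1, and 6.82 and 6.88 in C1, and its probe set 1450506_a_at gave a log2 difference of 1.43. Its dimmer probe sets 1437373_at and 1451186_at gave 0.50 and 0.66, and neither passed an unadjusted p of 0.01. Ei24 (1416555_at), a protein of the endoplasmic reticulum, read 9.02 and 9.08 in E1, and 8.31 and 8.39 in C1. In each of these genes both E1 arrays lay above both C1 arrays. Bbc3, the BH3-only protein Puma, had a log2 difference of 0.54 and the death receptor Fas of 0.56, both with E1 arrays above C1 arrays but neither called. Tnfrsf10b, a receptor of the death ligand TRAIL, had 0.24 and Pidd1, a scaffold for caspase-2, had 0.36.

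**Figure D2:**
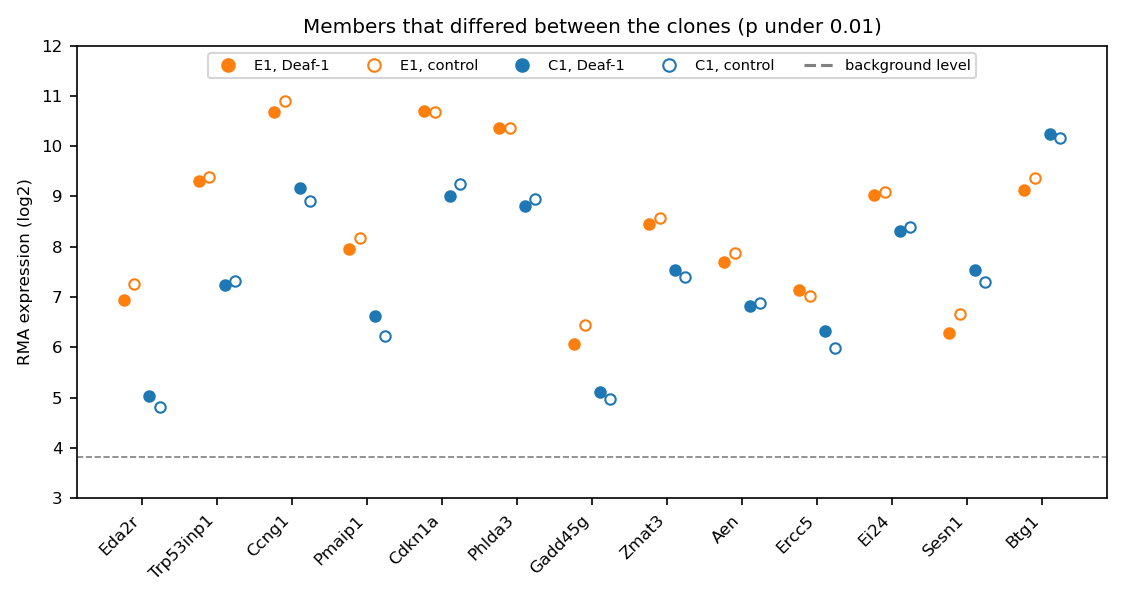
RMA expression (log2, vertical axis) of the 13 p53 target genes with an unadjusted p under 0.01 between clones, on each array, with clone E1 in orange, clone C1 in blue, Deaf-1 as filled and control as open circles. The dashed line is the background level of 3.83. For 11 genes the orange points lie above the blue ones, and for Sesn1 and Btg1 below.

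Among genes of metabolism, autophagy and stress, Trp53inp1 stood out. This protein promotes the phosphorylation of p53 and takes part in autophagy. Trp53inp1 (1416926_at) read 9.30 with Deaf-1 and 9.38 with control in E1, and 7.24 and 7.32 in C1. The difference was 2.06 under either retrovirus, a 4.17-fold difference with a standard error of 0.14 and the lowest adjusted p of the members (0.0535). Its probe set 1416927_at gave 1.77. The related Trp53inp2 had 0.09 and was not called.

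The sestrins, which curb the growth kinase complex mTORC1, were not alike. Sesn1 (1433711_s_at) read 6.29 with Deaf-1 and 6.66 with control in E1, and 7.53 and 7.29 in C1, a log2 difference of -0.94 (standard error 0.21). Its probe sets 1454699_at and 1438931_s_at gave -1.01 and -1.10, though neither passed an unadjusted p of 0.01. Sesn2 had 0.37. Sesn3 (1449303_at) had -0.55 and read 5.88 with Deaf-1 and 6.40 with control in E1, and 6.87 and 6.52 in C1, so the clones did not overlap but Sesn3 was not called. Its second probe set (1453313_at) gave 0.15, the opposite sign. The mTORC1 inhibitor Ddit4 had 0.08 and Tigar, an enzyme that lowers the flow through glycolysis, 0.04. Apart from Trp53inp1 and Sesn1, none of these 7 genes was called. That is 14.3% each way, against 5.1% higher and 5.21% lower among the genes above background.

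Repair genes were divided. Ercc5 (1450935_at), an endonuclease of nucleotide excision repair, was higher in E1 at 7.14 with Deaf-1 and 7.02 with control, against 6.33 and 5.99 in C1 (log2 difference 0.93, standard error 0.15). Its only other probe set lay below background. Polk (1449483_at), a polymerase that copies damaged DNA, read 6.67 and 7.09 in E1, and 5.94 and 5.26 in C1. The log2 difference of 1.28 did not pass, whereas that of 1.23 at a second Polk probe set (1419501_at) did. The damage sensor Ddb2 had -0.54, its partner in damage recognition Xpc -0.06, the ribonucleotide reductase subunit Rrm2b -0.47 and Dda1, a subunit of ubiquitin ligases built on Ddb1, -0.47. Dda1 (1429039_s_at) read 7.91 with Deaf-1 and 7.84 with control in E1, and 8.31 and 8.40 in C1. Rrm2b (1433773_at) read 5.33 and 5.69 in E1, and 6.15 and 5.81 in C1. At these probe sets of both genes the E1 arrays lay below the C1 arrays. For Dda1 the clones overlapped at 1429038_at, with a log2 difference of -0.12, and did not at 1434281_at, with -0.42. Of 6 genes in this group, 1 (16.7%) was higher, against 5.1% of the genes above background, and 5 were not called.

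None of the proteins that keep p53 in check was called, although all 4 had a higher mean in E1, with a median difference of 0.44. Mdm2 (1427718_a_at) read 8.97 with Deaf-1 and 8.91 with control in E1, and 8.37 and 8.55 in C1, a log2 difference of 0.48 (standard error 0.15) that was not called. At a second bright probe set of Mdm2 (1423605_a_at) it was 0.09, with E1 and C1 arrays overlapping. Mdm4, a relative of Mdm2 that blocks the activity of p53, had 0.62, the phosphatase Ppm1d 0.40 and the ubiquitin ligase Rchy1 0.17. A dimmer probe set of Mdm4 (1458223_at) gave 0.71 and passed an unadjusted p of 0.01. Its probe set 1419558_at gave 0.47 and did not pass, nor did 1453982_at, which lay below background at -0.29.

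Further genes of the pathway were read in the same way. Of 22 measured genes from a second list of p53-induced transcripts, 9 (40.9%) were higher in E1 and 2 (9.09%) lower. These shares were 5.1% and 5.21% of the genes above background. The genes of this list had a median difference of 0.31. The largest moderated t among them had Igfbp3 (log2 difference 3.12), which binds insulin-like growth factors, Ephx1 (2.16), an epoxide hydrolase, Psrc1 (2.26), a spindle protein, and the adenylate kinase Ak1 (1.77). Prkab1 (-0.86), a subunit of the energy sensor AMPK, and the tetraspanin Cd82 (-0.70) were lower. Genes that p53 lowers through p21 and the DREAM repressor complex were also higher in E1, 7 of 19 (36.8%), with none lower and a median of 0.63. They included Rrm2 (1.33), a ribonucleotide reductase subunit, the proliferation marker Mki67 (0.96), the mitotic kinase Aurka (0.80) and Kif23 (0.78), a motor of cell division. E1 read higher than C1 both for p21 itself and for these 7 genes, which are known to be lowered through it.

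**Figure D3:**
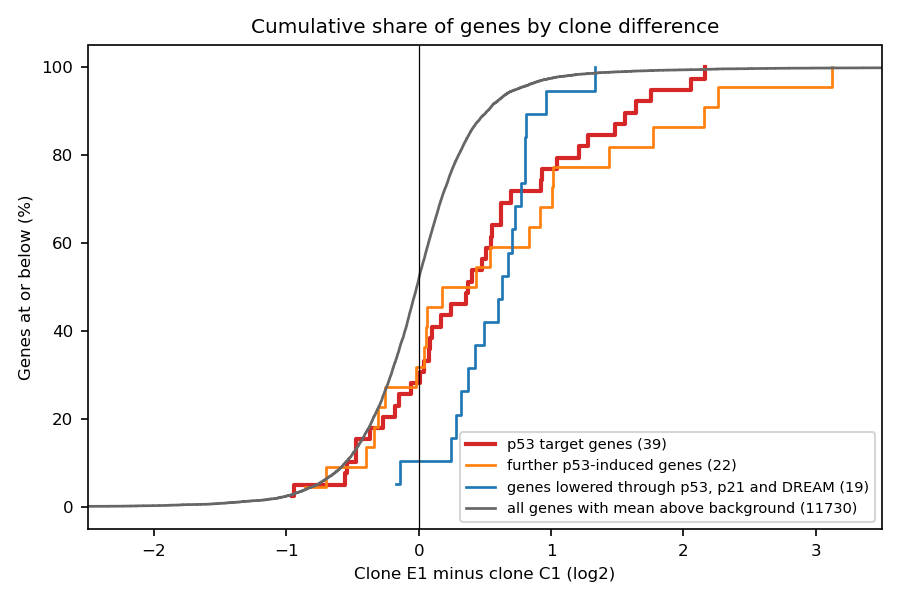
Cumulative share of genes (vertical axis, percent) at or below a given difference between clone E1 and clone C1 (log2, horizontal axis), for the p53 target genes, 2 further lists and all 11730 genes with a mean above background. The medians are 0.37, 0.31 and 0.63 for the lists and -0.02 for all genes.

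Regulators of p53 showed no shared shift. Among 23 measured kinases, modifiers, relatives and partners of E6 and E7, Cop1, a ubiquitin ligase for p53, was higher in E1 (0.72) and Sirt1, a deacetylase of p53, was lower (-1.39), with a median of -0.08. That is 4.35% each way, near the 5.1% and 5.21% of the genes above background. The kinase Atm had 0.61, Ube3a 0.48 and the acetyltransferase Kat5 -0.74, none of them called. Cdkn2a, the source of an inhibitor of Mdm2, had 0.28. Few of the cell markers differed between the clones. None of the 7 luminal, 7 basal and myoepithelial, 5 endothelial and 4 leukocyte genes measured was called. Of the mesenchymal markers Pdgfrb was higher in E1 (0.83), 1 of 7. Of 4 measured adipocyte markers Fabp4 was higher, with 10.6 on both E1 arrays, against 3.77 and 2.57 on the Deaf-1 and control arrays of C1. Since both C1 values lie below background, the log2 difference is given as at least 6.75, taken against the background level, while Adipoq, Lep and Cidec lay below background on all arrays. The part of such differences in the levels of the p53 target genes was not tested.

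Restoring Deaf-1 did not move the p53 target genes past the threshold. Each read by its brightest probe set, none of the 39 members reached an unadjusted p under 0.01, or under 0.05, in limma. This held with the clones as replicates and with clone as a block. No member reached an adjusted p under 0.05. Neither did any other probe set in either fit, that of Deaf1 included, so this threshold could not tell the members apart. Of all probe sets 0.0111% passed an unadjusted p of 0.01 without the block and 0.0244% with it. An unadjusted p of 0.05 in limma was passed by 195 of 45037 probe sets without the block and by 394 with it. At such low shares, a lack of called members is what most sets of this size would show. The median change was -0.01, and the members' changes ran from -0.24 for Pidd1 to 0.23 for Ercc5. The arrays cannot show that Deaf-1 leaves these genes alone. For Cdkn1a the change was -0.11, with a 95% confidence interval of -2.09 to 1.87 with the clones as replicates and of -0.53 to 0.31 with clone as a block. For Mdm2 the change was -0.06, with intervals of -0.78 to 0.65 and of -0.48 to 0.35. For Ccng1 it was 0.02, with -2.21 to 2.25 and -0.48 to 0.52. At the brightest probe sets no member's interval with the block reached below -0.90 or above 0.96. Dimmer probe sets of Mdm4 and Btg1 passed an unadjusted p of 0.05 in limma with the block, but not of 0.01. Mdm4 changed at 1419558_at by -0.53 in C1 and -0.51 in E1, with a block interval of -0.91 to -0.13. It changed by 0.02 and 0.27 at 1458223_at, by -0.20 and -0.49 at 1453982_at (below background), and by 0.19 and -0.40 at its brightest. Btg1 changed at 1442018_at by 0.61 in C1 and 0.29 in E1, but by 0.08 and -0.23 at its brightest.

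At the brightest probe sets the largest changes with Deaf-1 within each clone were not shared between clones. The Deaf-1 array minus the control array gave -0.42 for Polk in clone E1 and 0.68 in clone C1. Ddb2 (1425706_a_at) read 4.92 with Deaf-1 and 5.53 with control in E1, and 6.07 and 5.46 in C1. The change was -0.62 in E1 and 0.61 in C1. At its second probe set (1436680_s_at) it read 5.25 with Deaf-1 and 5.05 with control in E1, and 5.75 and 5.69 in C1, so the lower value in E1 did not recur there. Pidd1 (1421397_a_at) read 6.42 with Deaf-1 and 6.27 with control in E1, and 5.67 and 6.30 in C1, where the Deaf-1 array was the lowest of all 4. Xpc (1422532_at) read 4.57 and 5.14 in E1, and 4.98 and 4.84 in C1, and there the lowest array was that of E1 with Deaf-1. Of the 39 members 7 were higher with Deaf-1 in both clones and 7 were lower in both, 35.9% with a shared sign, against 39.3% of all probe sets and 36.1% of the genes above background. Another 24 changed in opposite directions, 17 of them down in E1 and up in C1, and Fas had no change in C1. Of the 7417 genes above background that changed in opposite directions, 4751 were likewise down in E1 and up in C1. Across members the correlation between the changes of both clones was -0.55, against -0.39 across the genes above background. Members share 4 arrays and are not independent, so this is a description.

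**Figure D4:**
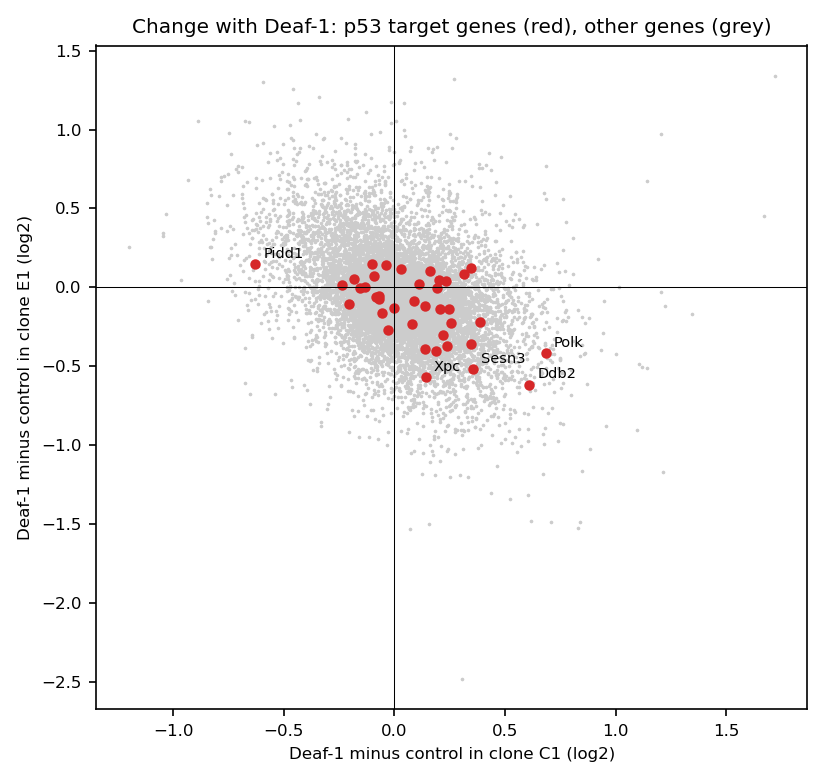
Deaf-1 array minus control array (log2) within each clone, E1 running up the page and C1 across it, for the 39 p53 target genes (red) and the genes with a mean above background (grey). Polk, at -0.42 in E1 and 0.68 in C1, and Ddb2, at -0.62 in E1 and 0.61 in C1, lie lower right, and Pidd1, at 0.15 in E1 and -0.63 in C1, lies upper left.

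The members higher in both clones with Deaf-1 at their brightest probe sets had small changes. Btg2 (1416250_at) read 7.53 with Deaf-1 and 7.45 with control in E1, and 7.13 and 6.82 in C1. Ddit4 (1428306_at) read 9.77 and 9.66 in E1, and 9.72 and 9.56 in C1. In both genes the Deaf-1 array was the higher of each pair. Ercc5 changed by 0.12 in E1 and 0.34 in C1, Plk2 by 0.04 and 0.23, Epha2 by 0.05 and 0.20, Tigar by 0.02 and 0.11 and Trp53inp2 by 0.11 and 0.03. Those lower in both were Perp, Ei24, Aen, Gadd45a, Rchy1, Sesn2 and Trp53inp1. Gadd45a (1449519_at) read 6.47 with Deaf-1 and 6.73 with control in E1, and 6.76 and 6.79 in C1. Rchy1 (1432144_a_at) read 8.90 and 8.95 in E1, and 8.73 and 8.80 in C1. Sesn2 (1425139_at) read 6.96 on both E1 arrays, and 6.51 and 6.67 in C1. In these 3 genes the values of the Deaf-1 and control groups overlapped. Among all members at their brightest probe sets, the largest moderated t with clone as a block was that of Ercc5, 1.53. By comparison, the difference of Ercc5 between clones was 0.81 with Deaf-1 and 1.04 with control.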

How the data were processed

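RNA of clones E1 and C1 with the Deaf-1 or the control retrovirus was hybridized to 4 Affymetrix Mouse Expression Set 430 2.0 arrays. The authors deposited log2 values made with RMA, a tool named in the submitters' processing notes without a version; no values were normalized again for the main results. Of 45101 probe sets, 64 control probe sets were left out and 45037 tested; 34945 had a single gene symbol from the platform annotation.

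limma 3.58.1 in R 4.3.3 was fitted over all probe sets (lmFit and eBayes, two-sided, Benjamini-Hochberg). Deaf-1 was compared with control with the clones as replicates, as the study describes them, and again with clone as a block, since each clone carried both retroviruses; deviations from the group means correlated at 0.54 between arrays of a clone. E1 was compared with C1 with retrovirus in the model. A call is an unadjusted p under 0.01. The fits were checked on simulated data. The members, lists and tests were chosen with earlier results of these data known. All members were named by rule, with array values for those with the highest or lowest moderated t and, of the further lists, up to 4 genes of largest moderated t. Ube3a, Cdkn2a and the cell markers were named outside it. Replicates are 2 per group, so precision is limited by the number of arrays.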

Additional observations from a re-analysis of the deposited data

Results flagged for a closer look

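Members whose change with Deaf-1 was at least 0.3 on the log2 scale in each clone, with opposite signs, are given here. In clone E1 the changes were -0.616 for Ddb2, -0.416 for Polk, -0.36 for Rrm2b and -0.517 for Sesn3, and in clone C1 they were 0.609 for Ddb2, 0.684 for Polk, 0.345 for Rrm2b and 0.354 for Sesn3. Each value rests on 1 array against 1 array, and the difference between clones was not tested. At their second brightest probe sets the changes in E1 were 0.20 for Ddb2, 0.21 for Polk, -0.29 for Rrm2b and -0.60 for Sesn3, and in C1 they were 0.06 for Ddb2, -0.03 for Polk, 0.26 for Rrm2b and -0.06 for Sesn3. A lower value in E1 and a higher value in C1 recurred there for Rrm2b and not for the other 3 genes.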

How the results depend on the processing

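No member passed an unadjusted p of 0.01 between Deaf-1 and control under any alternative run, clone as a replicate block (0 higher, 0 lower) and each array left out included. Between clones 11 members were higher and 2 lower in E1, and these 11 remained among those called under every alternative that kept the probe sets and arrays. Counts moved as follows. Without probe sets named _x_at or _s_at, 1 was lower, since Sesn1 then rests on another probe set. With the second brightest probe set of the 23 genes that have one, 6 were higher and 1 lower. With 1 array left out and no retrovirus term (with the term no degrees of freedom remain; added after the data were seen) 8 to 11 were higher and 0 to 2 lower; Sesn1 was lost without the Deaf-1 array of E1 (-0.76) or either C1 array (-0.82 without Deaf-1, -1.06 without control), and Btg1 without the Deaf-1 array of C1 (-0.91). Ercc5 was lost without either E1 array (0.87 without Deaf-1, 0.99 without control) or the control array of C1 (0.75), Ei24 without the control array of E1 (0.67) or either C1 array (0.65 without Deaf-1, 0.74 without control), and Gadd45g without the control array of C1 (1.14). At an adjusted p under 0.05, where 0 members passed, 11 higher and 2 lower did with no retrovirus term, 10 and 1 after a further quantile normalization, 11 and 1 after median centring, 10 higher after cyclic loess, 6 higher among probe sets above background and 11 and 1 with limma's trend. The cause was not tested. The background level at the 90th or 99th percentile left 38 or 37 members above it.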
